A study of Mus musculus with 2 samples.

Results

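The interferon response genes described here were taken from the expression table by symbol: the interferon receptors, the STAT and IRF transcription factors, and the families of antiviral and immune effectors that interferons induce. The rule matched 74 of the 22740 genes. Gene expression had been measured by RNA sequencing of poly-A purified RNA from the whole uterus of 2 C57BL/6 mice on day 4 of pregnancy, with 1 library per animal. The mice carried no treatment or engineered allele in the labels beyond the title WT, and they form a single group, so the data give basal levels and the difference between 2 animals, here called uterus 1 and uterus 2. Levels are the authors' RPKM, that is reads scaled to transcript length and library depth, and are given per uterus or as mean ± SD with n = 2. Whole reads could be recovered from these values up to a common factor per gene. With the factors chosen here they added up to 3873022 for uterus 1 and 4303763 for uterus 2. The smallest reads the values allow added up to 3487503 and 3874963. The median interferon response gene held 69 and 85 of the reads with the chosen factors.

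Interferons are secreted cytokines. Type I interferons bind IFNAR1 and IFNAR2, type II interferon binds IFNGR1 and IFNGR2, and both receptors act through Janus kinases on STAT transcription factors. A complex with STAT2 and IRF9 binds the interferon-stimulated response element (ISRE), and paired STAT proteins bind the gamma-activated sequence (GAS). On day 4 the lining of the mouse uterus is about to receive embryos. The uterine epithelium is known as a source of interferon epsilon, a type I interferon made without infection.

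Around their starts the interferon response genes held the letters of both elements more often than genes in general. Windows of 250 bases before and 50 bases after the RefSeq start (build GRCm38.p6) were found for 53 of the 74 genes. The core of the ISRE, a pair of GAAA repeats with any 2 bases between them, was searched on both strands and stood in the window of 25 of these 53 (47.2%), against 3.89% of the 16365 genes of the table with a window. TTCNNNGAA, the GAS core, which reads the same on both strands, stood in 18 (34.0%), against 9.16%. Both were present in 9 genes and neither in 19. The ISRE letters of Ddx58, Eif2ak2, Ifih1 and Ifitm3, and the GAS letters of Ifi35 and Ifitm3, lay only after the start. The share over all 32851 windows was 3.44% for the ISRE letters and 8.30% for the GAS letters. The stretches below end at the base before the start and were chosen to show 3 classical antiviral genes (Isg15, Ifit1, Rsad2), pairs of related neighbours (Oas1a with Oas1g, Igtp with Irgm2), and Gbp7, Irf1 and Ifitm2. Capitals mark the letters of either motif.

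Isg15 (chr4:156200819-156200918, minus strand): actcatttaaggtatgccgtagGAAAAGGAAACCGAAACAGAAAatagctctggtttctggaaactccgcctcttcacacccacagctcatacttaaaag
Ifit1 (chr19:34640759-34640888, plus strand): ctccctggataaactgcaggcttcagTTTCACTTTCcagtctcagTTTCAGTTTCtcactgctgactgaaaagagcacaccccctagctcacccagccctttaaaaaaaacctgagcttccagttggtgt
Rsad2 (chr12:26456453-26456582, minus strand): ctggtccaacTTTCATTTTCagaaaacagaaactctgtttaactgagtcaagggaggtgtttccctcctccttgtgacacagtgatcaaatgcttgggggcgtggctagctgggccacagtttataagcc
Oas1a (chr5:120907526-120907635, minus strand): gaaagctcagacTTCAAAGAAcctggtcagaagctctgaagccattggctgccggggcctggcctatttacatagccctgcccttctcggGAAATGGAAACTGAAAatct
Oas1g (chr5:120887614-120887723, minus strand): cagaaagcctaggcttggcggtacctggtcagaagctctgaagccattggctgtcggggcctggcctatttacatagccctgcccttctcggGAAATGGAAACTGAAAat
Igtp (chr11:58199456-58199555, plus strand): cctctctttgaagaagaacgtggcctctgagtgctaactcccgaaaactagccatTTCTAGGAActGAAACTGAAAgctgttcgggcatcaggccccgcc
Irgm2 (chr11:58214877-58214976, plus strand): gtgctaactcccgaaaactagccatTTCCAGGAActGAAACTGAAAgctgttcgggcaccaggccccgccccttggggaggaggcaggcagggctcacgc
Gbp7 (chr3:142530216-142530335, plus strand): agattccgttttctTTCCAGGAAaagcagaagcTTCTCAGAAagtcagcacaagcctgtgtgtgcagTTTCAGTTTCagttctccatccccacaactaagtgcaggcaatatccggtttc
Irf1 (chr11:53769904-53770013, plus strand): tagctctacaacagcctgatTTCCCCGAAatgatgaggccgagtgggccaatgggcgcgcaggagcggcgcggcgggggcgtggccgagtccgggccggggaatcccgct
Ifitm2 (chr7:140955962-140956061, minus strand): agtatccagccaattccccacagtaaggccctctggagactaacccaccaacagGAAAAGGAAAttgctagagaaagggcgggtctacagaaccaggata

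In Isg15 the ISRE letters occurred 3 times in overlap, the first match starting 78 bases before the start. Ifit1 held 2 separate matches and Rsad2 held 1, all on the opposite strand. Oas1a and Oas1g shared an unbroken run of 73 bases that included their overlapping matches and went on past the start, beyond the stretches shown. Igtp and Irgm2 each held a GAS match 2 bases before an ISRE match. Irf1, which has 2 windows in the table, held a GAS match and no ISRE match in the window shown and neither in the other. A match is a string of letters, not a measured binding site, and no test was made of these shares.

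As a group the interferon response genes were expressed at moderate levels. Of the 74 genes, 60 (81.1%) reached 1 RPKM in both uteri, the level used here for detection, against 58.4% of all genes and 61.6% of genes with an NM_ identifier, which all 74 have. At 10 RPKM or more in both uteri there were 31 (41.9%), against 30.4% of all genes and 33.0% of NM_ genes. The median was 7.66 ± 0.636 RPKM (SD, n = 2), against 3.26 ± 0.0405 RPKM over all genes and 4.26 ± 0.0687 RPKM over NM_ genes. Only 3 genes were listed at 0 in both uteri and a further 3 in uterus 1 alone, where 23.4% of all genes were listed at 0 in both. Rpl26, a ribosomal protein gene that cells in general use, is also listed at 0, so a listed 0 is not read as absence.

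**Figure D1:**
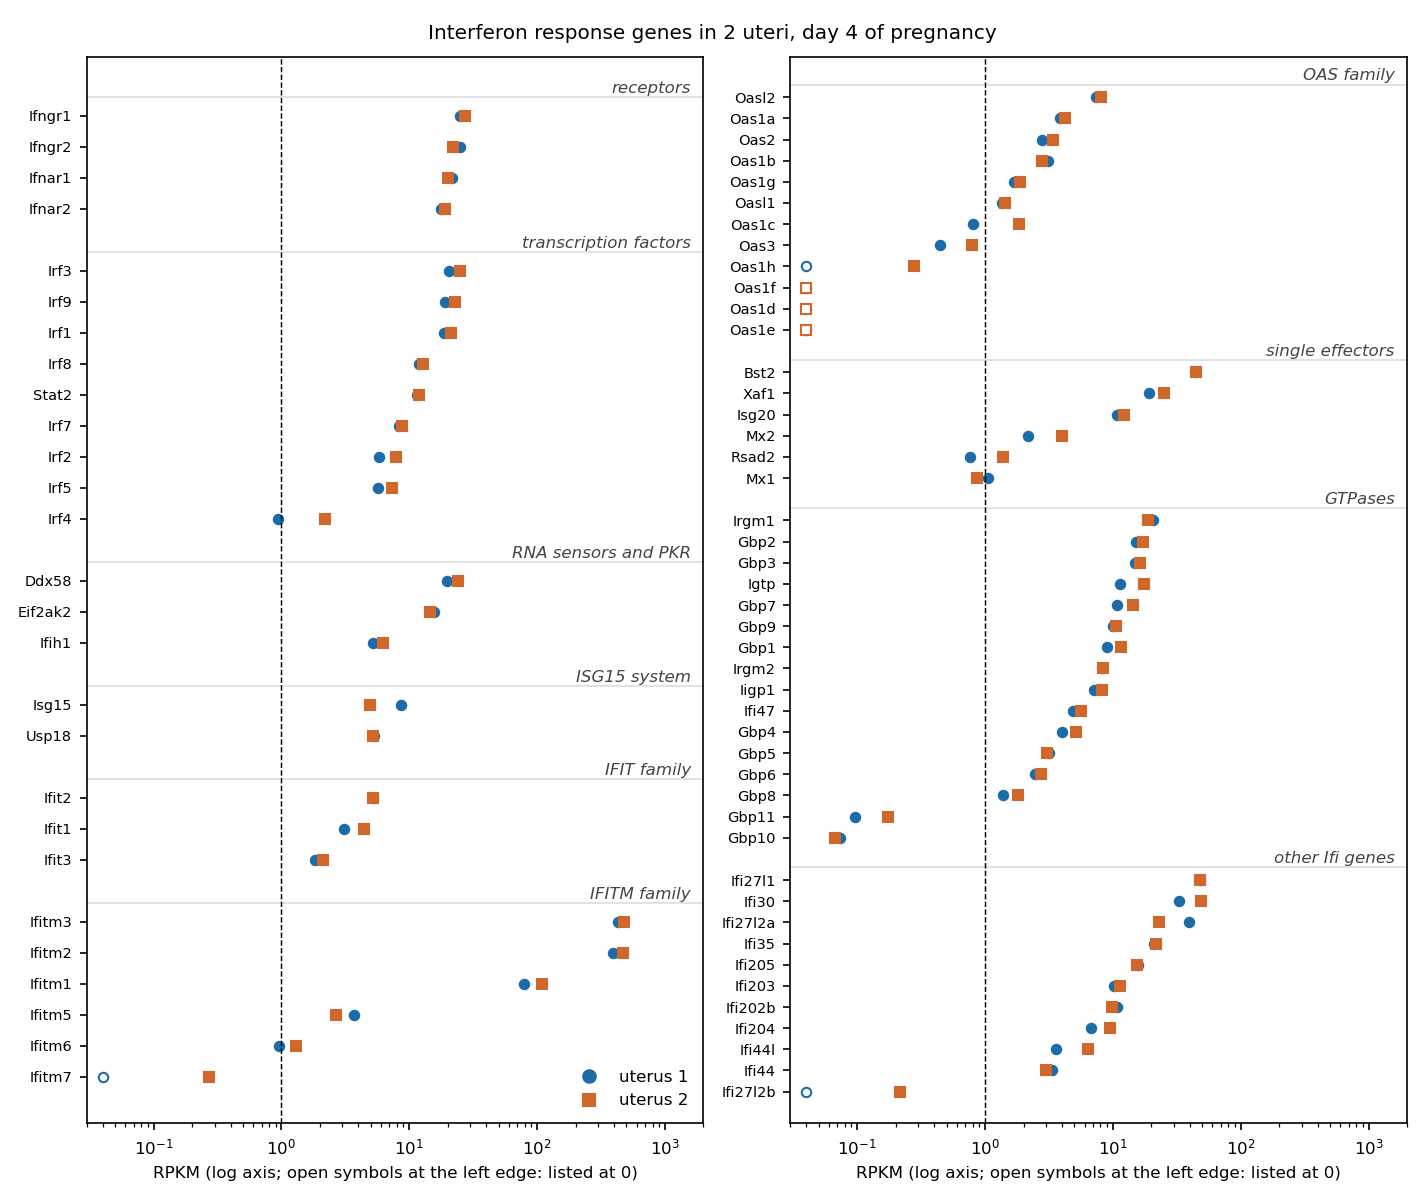
RPKM (log axis) of each of 72 interferon response genes in uterus 1 (circles) and uterus 2 (squares), by role; open symbols stand for values listed at 0 and the dashed line marks 1 RPKM. Ifitm2 and Ifitm3 lie between 395 and 479 RPKM, the receptors between 17.6 and 27.1 RPKM, and most OAS genes below 5 RPKM.

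The 4 receptor subunits lay within a narrow range. Ifnar1 (chromosome 16, 91485460 to 91510767, NCBIM37), the signalling subunit of the type I receptor, stood at 21.7 RPKM in the first animal and 20.1 RPKM in the second, on 583 and 601 reads. Its partner Ifnar2 stood at 17.6 and 18.9 RPKM. Ifngr1, the ligand-binding chain of the type II receptor, stood at 24.9 and 27.1 RPKM, and Ifngr2, its signalling chain, at 24.9 and 22.0 RPKM. Ifnar1 was above Ifnar2 in both animals and their values did not overlap, while Ifngr1 and Ifngr2 were level in uterus 1 and Ifngr1 was higher in uterus 2. Ifnar2, Ifnar1 and Ifngr2 lie on chromosome 16 within 91373028 to 91564252, with Il10rb between Ifnar2 and Ifnar1. No receptor was called different between the animals by the exact binomial test described below, with Benjamini-Hochberg adjusted p from 0.514 (Ifngr2) to 0.826 (Ifnar2).

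The transcription factors spanned a wider range than the receptors. Of the subunits of the ISRE-binding complex, Irf9 lay at 19.0 and 22.6 RPKM and Stat2 at 11.5 and 12 RPKM. Irf9 was above Stat2 in both animals.

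Irf3, the factor that is present before infection and switches on interferon beta, lay at 20.5 and 24.9 RPKM. Irf7, the induced factor that amplifies type I interferon, lay at 8.28 and 8.85 RPKM, so that Irf3 exceeded Irf7 by 2.65 ± 0.240 fold. Irf1, a GAS-driven activator, stood at 18.6 and 21.3 RPKM, above its antagonist Irf2 at 5.77 and 7.85 RPKM. Of the factors known from leukocytes, Irf8, of macrophages and dendritic cells, lay at 12 and 12.7 RPKM, above Irf7 and Irf2, and Irf5, a macrophage factor, at 5.67 and 7.37 RPKM, next to Irf2. Irf4, a factor of lymphocytes and plasma cells, was the lowest at 0.947 and 2.21 RPKM on 17 and 44 reads. In whole tissue, fewer cells of a type and less RNA per cell cannot be told apart.

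Among the cytosolic sensors of viral RNA, Ddx58 (RIG-I) exceeded Ifih1 (MDA5) in both animals, by 3.84 ± 0.0422 fold. Ddx58 lay at 19.8 and 24.2 RPKM and Ifih1 at 5.20 and 6.26 RPKM. Eif2ak2, which encodes the RNA-activated kinase PKR that halts translation, lay at 15.5 and 14.4 RPKM. The ISG15 system, a ubiquitin-like modifier and the protease that removes it, had means below the interferon response median of 7.66 RPKM. By mean, Isg15 was higher than 60.5% of all genes and Usp18 higher than 56.2%. Isg15 (chromosome 4, 155573533 to 155574927) lay at 8.62 and 4.97 RPKM on only 25 and 16 reads, and Usp18 at 5.30 and 5.17 RPKM on 36 and 39. Isg15 was above Usp18 in uterus 1 and slightly below it in uterus 2, so the animals did not give 1 order for the pair.

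The effector families differed widely in level. The IFITM proteins, membrane proteins that block fusion of enveloped viruses, held the highest values of all interferon response genes. Ifitm3 (chromosome 7, 148195489 to 148196643) lay at 431 and 479 RPKM on 1070 and 1321 reads, higher than 99.5% of all genes. Ifitm2 lay at 395 and 467 RPKM on 949 and 1247 reads, and Ifitm1 at 79.2 and 109 RPKM. Together Ifitm2 and Ifitm3 made up 50.2% ± 0.406 (SD, n = 2) of the summed RPKM of the 74 genes.

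The other IFITM genes were far lower. Ifitm5, known from bone-forming cells, lay at 3.68 and 2.65 RPKM on 10 and 8 reads. Ifitm6 lay at 0.964 and 1.30 RPKM on 2 and 3 reads, next to the detection level. Ifitm7, on chromosome 16, was listed at 0 in uterus 1 and held 1 read in uterus 2. Of the 50-base stretches in the annotated Ifitm3 transcript, 10% also occurred in a transcript of another gene, and for Ifitm2 it was 11.1%. How the authors' counting placed reads from such stretches is not given in the sources used here.

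The IFIT proteins, which bind viral RNA ends, stood far below Ifitm3. Ifit2 lay at 5.22 and 5.24 RPKM on 79 and 88 reads, Ifit1 at 3.06 and 4.45 RPKM on 31 and 50 reads, and Ifit3 at 1.83 and 2.12 RPKM. Ifitm3 exceeded Ifit3 by 231 ± 6.63 fold per length. The value of Ifit3 is uncertain, since 51.5% of its stretches recur in the neighbouring copy I830012O16Rik.

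The OAS family, synthetases of the 2-5A messenger that activates RNase L, had the lowest median of the role groups, 1.36 RPKM. Of its 12 genes 6 were detected in both uteri and none reached 10 RPKM. Oasl2 was highest at 7.32 and 8.02 RPKM, followed by Oas1a at 3.87 and 4.23 RPKM and Oas2 at 2.77 and 3.41 RPKM. Oas1c lay at 0.799 and 1.85 RPKM, on either side of the detection level, Oas3 at 0.442 and 0.797 RPKM, below it in both, and Oasl1 at 1.35 and 1.44 RPKM, just above it.

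Oas1d, Oas1e and Oas1f were listed at 0 in both uteri, and Oas1h, the lowest above 0, in uterus 1, with 2 reads in uterus 2. All 4 lie inside the OAS cluster of 10 genes on chromosome 5 (121180342 to 121371656), in which 4 genes were detected in both uteri. Oas1b, the flavivirus resistance gene that is truncated in C57BL/6, lay at 3.12 and 2.81 RPKM. This came to 22 reads in each library with the annotated length, but the values alone would also allow 2 reads in each, so its depth is uncertain by a factor of 11. Oas1a and Oas1g share much of their sequence, with 57.1% of the stretches of Oas1a present in Oas1g, so the division of reads between them is uncertain.

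Of the effectors without a large family, Bst2 (tetherin, which holds budding virions at the cell surface) was highest at 43.9 and 44.5 RPKM on 129 and 145 reads. Xaf1, a pro-apoptotic gene, lay at 19.2 and 24.9 RPKM, and the exonuclease Isg20 at 10.7 and 12.2 RPKM. Rsad2 (viperin) lay at 0.758 and 1.37 RPKM on 11 and 22 reads. Mx1, whose coding exons are partly deleted in C57BL/6, lay at 1.05 and 0.869 RPKM, and Mx2 at 2.15 and 3.97 RPKM. Bst2 exceeded Mx1 by 46.5 ± 6.68 fold.

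Most GTPases that act on vacuoles of intracellular pathogens were detected. Of 16, 14 were detected in both uteri and 6 reached 10 RPKM in both. Irgm1, a regulator of the immunity-related GTPases, was highest at 20.5 and 18.7 RPKM. Gbp2 lay at 15.3 and 17.1 RPKM, Gbp3 at 15.0 and 16.2 RPKM, Gbp9 at 10.1 and 10.6 RPKM, and Gbp1 at 8.97 and 11.6 RPKM.

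The guanylate-binding protein genes lie in 2 clusters. All 5 genes of the chromosome 3 cluster (142159898 to 142300972) were detected, and 3 reached 10 RPKM in both uteri. In the chromosome 5 cluster (105443172 to 105775491), 4 of 6 were detected and 1 reached 10 RPKM in both. Gbp10 held 1 read in each library and Gbp11 held 1 and 2. Of the stretches of Gbp10, 79.8% recur in other genes and 77.4% in Gbp6, so the low value of Gbp10 and the 2.48 and 2.72 RPKM of Gbp6 are uncertain. Igtp lay at 11.3 and 17.4 RPKM and its neighbour Irgm2 at 8.16 and 8.36 RPKM. Iigp1 lay at 7.10 and 8.20 RPKM and Ifi47 at 4.92 and 5.60 RPKM.

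Ifi27l1, a mitochondrial membrane protein of the ISG12 family, lay at 47.8 and 48.0 RPKM, and its neighbour Ifi27l2a at 39.4 and 22.8 RPKM on 70 and 45 reads. Of the stretches of Ifi27l2a, 40.8% recur in Ifi27l2b, so its value is uncertain. Ifi30, a lysosomal thiol reductase used in antigen processing, lay at 33.2 and 48.6 RPKM, and Ifi35 at 21.1 and 21.8 RPKM. The DNA-binding p200 proteins lay on chromosome 1 between Ifi204 at 6.70 and 9.52 RPKM and Ifi205 at 15.7 and 15.4 RPKM. Of the stretches of Ifi205, 49.5% recur in other genes, and of those of Ifi204 28.9%, both chiefly in Mnda. Between them lay Ifi203 at 10.2 and 11.3 RPKM and Ifi202b at 10.7 and 9.81 RPKM. Ifi27l2b was listed at 0 in uterus 1 and held 1 read in uterus 2. Ifi44 lay at 3.32 and 2.99 RPKM and Ifi44l at 3.62 and 6.35 RPKM.

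Levels of genes with and without the letters of either motif overlapped. The 25 genes with the ISRE letters had medians of 10.2 and 11.3 RPKM, and the 28 without had 9.49 and 9.33 RPKM. Those with the letters ran from 0.620 RPKM (Oas3) to 455 RPKM (Ifitm3). The 18 genes with the GAS letters had medians of 11 and 13.5 RPKM and 17 of them were detected in both uteri, and the 35 without had 7.32 and 7.37 RPKM with 28 detected. These are descriptions of 53 genes and no test was made. Isg15, Ifit1, Ifit3, Oas3 and Rsad2, which hold the ISRE letters and were singled out after their values were seen, were all below 9 RPKM in both uteri.

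Genes of the pathway around these 74 were taken from lists of ligands, kinases, regulators, sensors and further stimulated genes. None of the 19 interferon genes reached 1 RPKM in either uterus, and 16 were listed at 0 in both, among them Ifnb1 and Ifng. All 19 together held 5 and 3 reads. Ifne held 2 reads in uterus 1 (0.786 RPKM; the value alone would also allow 1) and was listed at 0 in uterus 2, and no upper limit is read from a listed 0. A difference in Ifne was not detectable at this depth. Ifnk held 2 and 3 reads, and Ifnz 1 read in uterus 1 and a listed 0 in uterus 2.

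The kinases and regulators of the receptors were detected in both uteri. Jak1 lay at 91.9 and 92.9 RPKM and Jak2 at 59.7 and 74 RPKM, whereas Tyk2, the kinase of IFNAR1, lay at 8.40 and 8.97 RPKM. Il10rb, a shared chain of the type III interferon receptor, lay at 13.7 and 13.1 RPKM, and its partner Ifnlr1 at 3.90 and 4.39 RPKM. All 6 negative regulators were detected, from Socs1 at 5.06 and 5.09 RPKM through Pias1 at 13.2 and 12.7 RPKM and Socs3 at 17.9 and 17.5 RPKM to Ptpn11 at 33.0 and 32.3 RPKM. Of the 14 sensors and adaptors 13 were detected in both. Myd88, the adaptor of most Toll-like receptors, was highest at 77.9 and 89.0 RPKM, followed by Tmem173 (STING) at 17.8 and 19.9 RPKM and Tbk1 at 16.6 and 17.3 RPKM. Tlr9 lay at 1.13 and 0.948 RPKM.

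Of the 32 further stimulated genes 29 were detected in both uteri. B2m, the light chain of MHC class I, was highest at 399 and 556 RPKM, then Shisa5 at 43.8 and 48.5 RPKM and the immunoproteasome subunit Psmb8 at 34.5 and 44.6 RPKM. The interferon-induced chemokines were low: Cxcl10 lay at 1.66 and 1.28 RPKM on 7 and 6 reads, Cxcl9 held 3 and 11 reads and Cxcl11 held 1 and 2. Ido1 held 1 read in uterus 1 and was listed at 0 in uterus 2.

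**Figure D2:**
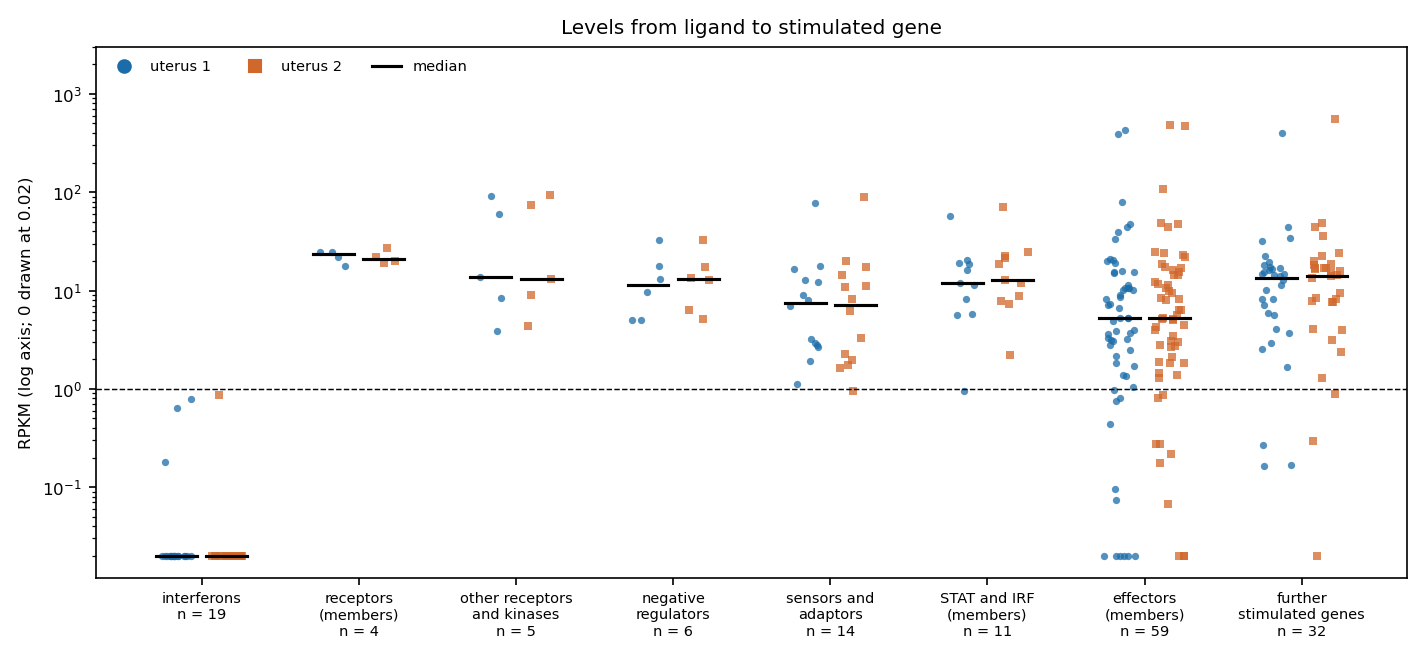
RPKM (log axis, 0 drawn at 0.02) of interferon genes, receptors, kinases, regulators, sensors, STAT and IRF factors, effectors and further stimulated genes in uterus 1 (circles) and uterus 2 (squares), with the median as a bar. The 19 interferon genes lie below the dashed line at 1 RPKM, and the 4 receptors lie above 17 RPKM.

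The remaining question was how closely the 2 animals resembled each other. The log2 ratio of uterus 2 over uterus 1 was taken after adding 0.1 RPKM to each value, which understates the change of low genes, over the 64 interferon response genes whose mean reached 1 RPKM. Of these, 51 (79.7%) were higher in uterus 2, against 50.1% of all 13647 genes at that level. Their median log2 ratio was 0.16, against 0.00 over all genes. By sign alone, 11 of 11 transcription factors, 3 of 3 IFIT genes, 12 of 14 GTPases, 2 of 4 receptors and 0 of 2 genes of the ISG15 system were higher in uterus 2. The exact binomial test described below called 1, 0, 2, 0 and 0 of these. In the other role groups it was 5 of 5 single effectors, 6 of 7 OAS genes and 4 of 5 IFITM genes. It was 2 of 3 for RNA sensors and PKR and 6 of 10 for other Ifi genes. Of these the test called 0, 0, 2, 0 and 1. A sign can rest on a very small difference, as in Ifit2 and Usp18, both with an unadjusted exact binomial p of 1.00, and role groups were not tested against each other. These genes are not independent replicates, and the counts describe 2 animals.

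**Figure D3:**
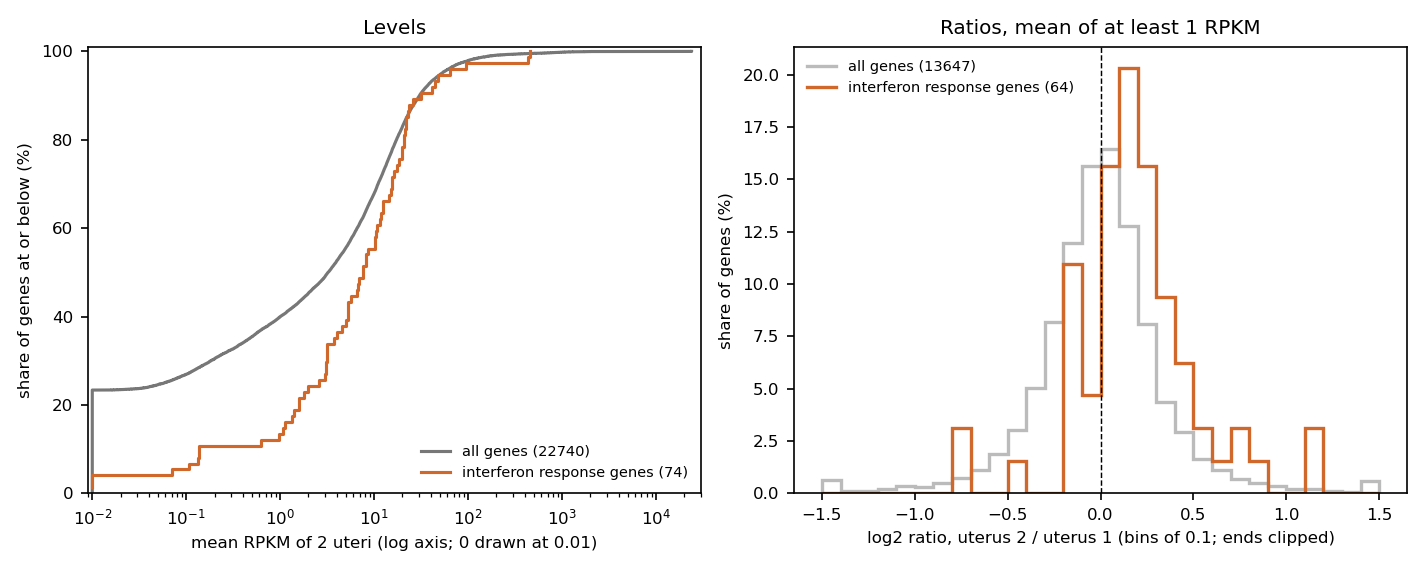
Left, the share of genes at or below each mean RPKM (log axis) for all 22740 genes and the 74 interferon response genes; right, the share of genes by log2 ratio of uterus 2 over uterus 1 for the 13647 and 64 genes whose mean reached 1 RPKM. The interferon response genes have fewer low values, and their ratios centre on 0.16 where all genes centre on 0.00.

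Of the 64 genes 2 (3.12%) were at least 2-fold apart, both higher in uterus 2, where 2.60% of all genes were 2-fold apart, 1.18% in that direction and 1.42% in the other. Irf4 held 17 and 44 reads, a log2 ratio of 1.14, and Oas1c 7 and 18, a log2 ratio of 1.12. Neither passed the exact binomial test, a two-sided test of the recovered reads of each gene against the ratio of the libraries' scaling totals. The Benjamini-Hochberg adjusted p over all 15154 genes tested was 0.0555 for Irf4 and 0.370 for Oas1c. This test compares the 2 libraries, not conditions.

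The same exact binomial test called 6 of the 65 interferon response genes with enough reads, all higher in uterus 2, where it called 4.96% of all genes, and 2.31% as higher in uterus 2. Of the 6, 5 are described here. At an unadjusted p under 0.05 there were 13 of 65 (20%), of which 12 were higher in uterus 2. Over all genes it was 16.1%, of which 1187 genes were higher in uterus 2 and 1250 lower. Ifitm1 had a ratio of 1.37 (95% interval 1.17 to 1.62) and an exact binomial adjusted p of 0.00342, and Ifitm2 a ratio of 1.18 (1.09 to 1.29) and 0.00390. For Ifi30 the ratio was 1.46 (1.17 to 1.84), for Gbp7 1.34 (1.13 to 1.59), both with an adjusted p of 0.0202, and for Igtp 1.54 (1.17 to 2.02) with 0.0330.

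These 5 genes belong to 3 of the role groups, and their differences are between 1.18-fold and 1.54-fold. Ifitm3 had a ratio of 1.11 (1.03 to 1.21) and was not called, with an exact binomial adjusted p of 0.125. Irgm2, the neighbour of Igtp, had a ratio of 1.02 (0.786 to 1.33). Whether the ratios of Igtp and Irgm2 differ was not tested. Toward uterus 1 the largest differences were those of Isg15, with a ratio of 0.577 (0.288 to 1.12), and Ifi27l2a, with 0.579 (0.389 to 0.854), a gene whose sequence is partly shared. Neither was called, with exact binomial adjusted p of 0.413 and 0.0802.

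**Figure D4:**
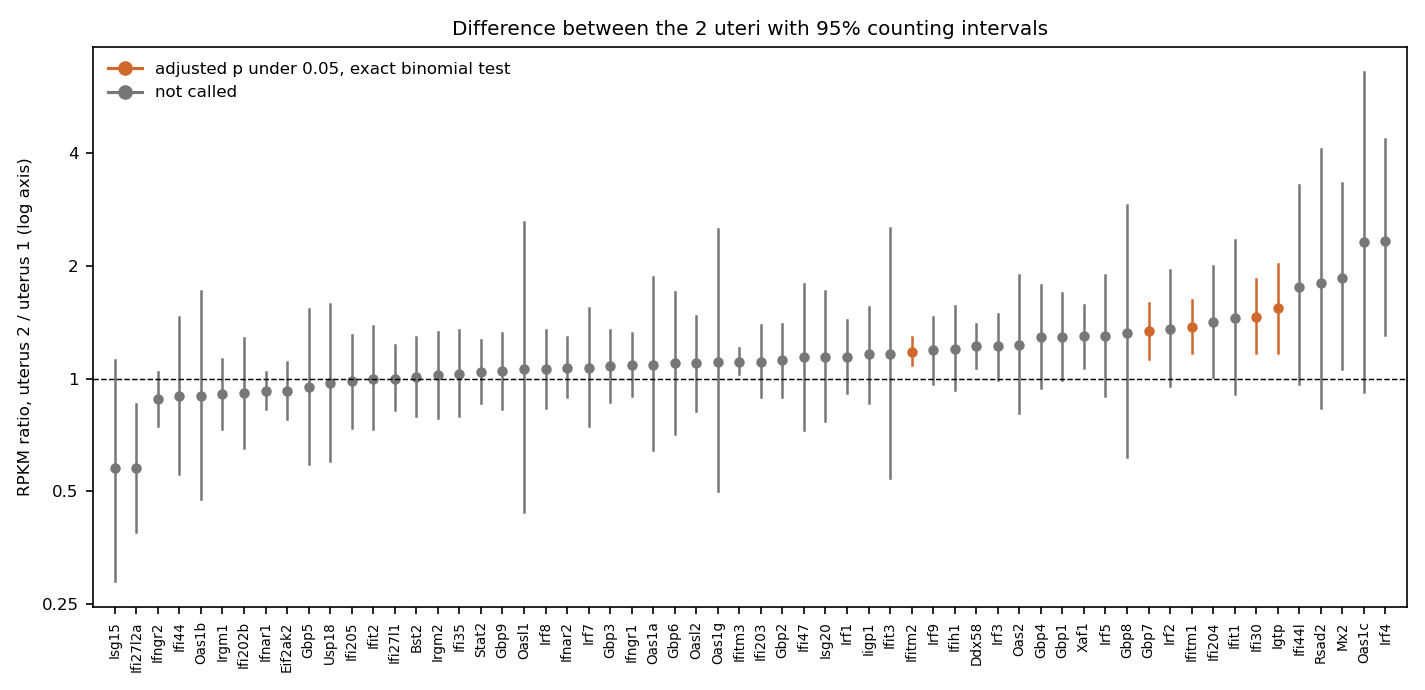
Ratio of RPKM in uterus 2 over uterus 1 (log axis, points) with 95% exact counting intervals (lines) for 60 interferon response genes whose mean reached 1 RPKM and that held at least 20 reads in sum, ordered by ratio. The interval includes 1 for 48 genes, lies above 1 for 11 and below 1 for 1, and the 5 genes drawn as called by the exact binomial test are all above 1.

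Further genes of the pathway called higher in uterus 2 by the exact binomial test were Jak2 (adjusted p 3.1e-06), B2m (8.2e-19) and Psmb9 (0.00469). The call of Psmb9 rests on the factor of 2 by which its reads, 70 and 136, were matched to the annotated length, and with the smallest reads its values allow, 35 and 68, the adjusted p was 0.124. No sensor, adaptor or negative regulator was called. Markers of cell types also differed between the animals. Their RPKM added up to 293 and 318 for 8 leukocyte markers and 244 and 279 for 5 epithelial markers. It was 4129 and 4031 for 5 stromal markers, 1741 and 1737 for 5 smooth muscle markers, 148 and 141 for 5 endothelial markers and 10.1 and 7.55 for 3 natural killer cell markers. Of the natural killer cell markers, Ncr1 (28 and 23 reads) and Gzmb (22 and 13) were lower in uterus 2 and Klrb1c (11 and 19) was higher. Lyz2 alone held 218 and 236 RPKM of the leukocyte sum, and the others went both ways. Ptprc, on all leukocytes, lay at 17.7 and 21.6 RPKM on 385 and 521 reads, and Csf1r of macrophages at 19.4 and 22.9 RPKM. Emr1 and Cd68, also of the leukocyte list, were lower in uterus 2, at 19.2 and 17.3 RPKM and at 15.3 and 14.2 RPKM. Cd79a of B cells held 6 and 16 reads and Cd3e of T cells 7 and 6. No marker of these lists was at 0 in either uterus. Of the stromal markers 4 of 5 were higher in uterus 2, and Col1a1 alone, at 1184 and 851 RPKM, was lower and turned the sum. The exact binomial test called Dcn and Vim higher and Col1a1 lower in uterus 2. It called 2 smooth muscle markers, Myh11 higher and Acta2 lower, and 2 endothelial markers, Kdr and Vwf, both lower. The other endothelial markers, Pecam1, Cdh5 and Tek, had ratios of 1.00, 1.04 and 1.04 and were not called. The exact binomial test called 0 of the leukocyte and natural killer cell markers. At an unadjusted p under 0.05 there were 2 of 8 leukocyte markers, Ptprc and Csf1r, both higher in uterus 2. There were 0 of 3 natural killer cell markers. The epithelial marker Krt18 was called higher in uterus 2 (adjusted p 6.4e-04 in the same test, 0.0498 with the smallest reads). Of the 5 epithelial markers 3 had an unadjusted p under 0.05, all higher in uterus 2: Krt18, Epcam with a log2 ratio of 0.34 and Krt8 with 0.18. Krt19 and Cdh1 had log2 ratios of -0.09. The part of these cell types in the differences was not tested. Plasmacytoid dendritic cells are known as strong producers of type I interferon, and the sum of their 5 markers was 122 and 125 RPKM. Of these, Tcf4, Bst2 and Irf8, which other cells also express, had ratios of 1.00, 1.01 and 1.06. Siglech lay at 1.74 and 2.84 RPKM on 16 and 29 reads and Ccr9 at 0.416 and 0.749 RPKM on 7 and 14, and none of the 5 was called, nor had an unadjusted p under 0.05 in the exact binomial test.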

How the data were processed

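The authors deposited RPKM values per gene for 2 libraries. Per the submitters' processing notes TopHat, edgeR and build mm9 (NCBIM37) were used. How reads were counted, on which gene models and whether by strand, is not given in the sources used here. The annotated table gives starts counted from 0: of 21203 genes matched to GENCODE M1, 12380 had an annotated start 1 base later. Coordinates are printed counted from 1.

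Values of single-exon genes were whole multiples of 1 read, which gave scaling totals of 3834174 and 4256101. All 17426 genes above 0 then gave whole reads within a relative tolerance of 1e-12. A common factor cannot be seen from the ratio and was chosen by closeness to annotated coding transcripts. In both libraries the reads with the chosen factors added up to more than the scaling total, and the smallest possible reads to less. Some chosen factors may thus be too high. The factor exceeded 1 for 9 of the 71 interferon response genes above 0, among them Ifi35, Ifit3, Ifngr2, Irf1, Irf9, Oas1a, Oas1b and Oas3, and these reads are less certain. Psmb9, Krt18 and Ifne also carry such a factor. Genes with at least 6 reads in sum were tested (exact binomial, scipy 1.17.1, Benjamini-Hochberg over all genes, threshold 0.05). Intervals are exact (Clopper-Pearson, 95%) and cover counting error only. The read recovery and the test were tested on simulated data. Repeated sequence was counted as 50-base stretches of the longest annotated coding transcript found in another gene's.

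The rule for named genes took, in each role, the highest, the lowest above 0, those listed at 0, those with a mean of 10 RPKM or more, those called or 2-fold apart and those next to 1 RPKM, and from the lists of further genes the highest 3 and those listed at 0. The rule was not followed for the 16 interferon genes listed at 0 in both uteri, of which only Ifnb1 and Ifng are named. Other genes named, and the flanks shown, fall outside the rule and were chosen after their values were seen. Values of 2 of the 74 genes are not reported here, though the counts and medians include them. The genes, lists and motifs were chosen with earlier results of these data known.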

Additional observations from a re-analysis of the deposited data

How the results depend on the processing

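The number of detected interferon response genes (60) ran from 56 at 2 RPKM to 66 on the TPM scale, and was 61 to 64 with 1 library left out. Without genes sharing over 10% of their sequence, chosen after seeing the data, 48 of 57 were detected. The median level was 8.82 over genes above 0 in both uteri and 18.1 on the TPM scale, both by construction, and 7.21 to 8.11 RPKM with 1 library left out. The count of genes 2-fold apart (2) became 0 with a pseudocount of 1, 0 at a mean of 10 RPKM and 5 of 71 without a filter. At these settings 1.12%, 0.657% and 10.6% of all genes were 2-fold apart. The median log2 ratio of the interferon response genes stayed between 0.15 and 0.18. The exact binomial test called the same 6 genes under all 3 alternatives run, and the adjusted p of Irf4 ran from 0.050 to 0.0653 and was called under none of them. Outside these genes, alternatives added after seeing the data left B2m, Jak2 and Krt18 called and ended the call of Psmb9 with the smallest possible reads (0.124). Over all genes the test called 581 of 14896 with the smallest possible reads, against 751 of 15154. Depth limits the low families: 10 of the 74 genes held under 20 reads in sum. No paired analysis was possible because both libraries belong to the same group.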
